A study of Mus musculus with 8 samples.

Results

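The genes for receptors that bind the constant region of IgG were followed through every labelled cell population of mouse lung grafts. They were taken as a list of 6 names, Fcgr1, Fcgr2b, Fcgr3, Fcgr4, Fcer1g and Fcgrt, and all 6 were among the 17921 genes measured. Recipients of the C57BL/6 (B6) strain received an orthotopic left lung transplant (LTx), and total cells of the graft were sequenced 1 month later. In the B6→B6 group (n = 5 mice) the donor was also B6, and in the HLA→B6 group (n = 3 mice) the donor carried Tg(HLA-A2.1)1Enge, a human HLA-A2 transgene, on the C57BL/6 background. All mice were male, none received immunosuppression, and their age was not given in the sources used here. The transgene was therefore the only labelled difference, and host and graft cells of the same type were pooled in each library.

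Fcγ receptors (FcγRs) bind the constant region of IgG, also where it is attached to antigen, and so tie antibody to the cells that carry the receptor. Fcgr1 encodes a high-affinity receptor, and Fcgr3 and Fcgr4 encode activating receptors of lower affinity. These 3 pair with the product of Fcer1g, the common γ chain, which carries the ITAM that recruits the kinase Syk. Fcgr2b encodes the inhibitory receptor, whose ITIM recruits the phosphatase SHIP-1, and it is the FcγR of B cells. Fcgrt encodes the α chain of FcRn, which pairs with β2-microglobulin inside cells and returns IgG to the circulation. In the lung these receptors are best known from macrophages, monocytes and neutrophils.

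In the GRCm38 annotation (GENCODE), 4 of the genes lie on chromosome 1, within 275749 bases of each other. They are Fcgr2b (ENSMUSG00000026656.15, chr1:170958617-170976547, minus strand), Fcgr4 (ENSMUSG00000059089.4, chr1:171018920-171029761, plus strand), Fcgr3 (ENSMUSG00000059498.13, chr1:171051174-171064935, minus strand) and Fcer1g (ENSMUSG00000058715.11, chr1:171229572-171234365, minus strand). Fcgr1 lies on chromosome 3 (ENSMUSG00000015947.10, chr3:96282909-96293969, minus strand) and Fcgrt on chromosome 7 (ENSMUSG00000003420.8, chr7:45092990-45103851, minus strand). Fcgr2b and Fcgr3 share an exact run of 114 bases within the last 1000 bases of their transcripts, where this assay reads, and a read that falls inside that run cannot be told apart between them. No other pair of the 6 shares more than 14 bases there. An antisense gene, Gm45669, overlaps Fcgrt and has a row of its own.

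The promoters of the 4 receptor chains that bind IgG at the cell surface are shown because monocytes and alveolar macrophages held transcripts of all 4. Each runs from 250 bases before to 50 bases after the start site in RefSeq (GRCm38.p6) and is written 5′ to 3′ on the strand of the gene. Capitals mark GAGGAA, a core of sites for the myeloid factor PU.1, which is on the opposite strand here and so reads TTCCTC.

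Fcgr1, chr3:96293920-96294219, minus strand: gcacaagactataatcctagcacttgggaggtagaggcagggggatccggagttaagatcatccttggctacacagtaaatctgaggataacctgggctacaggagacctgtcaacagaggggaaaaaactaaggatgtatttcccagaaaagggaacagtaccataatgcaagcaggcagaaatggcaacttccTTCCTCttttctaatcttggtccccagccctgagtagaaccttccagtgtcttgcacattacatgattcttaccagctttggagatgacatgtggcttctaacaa

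Fcgr2b, chr1:170976022-170976321, minus strand: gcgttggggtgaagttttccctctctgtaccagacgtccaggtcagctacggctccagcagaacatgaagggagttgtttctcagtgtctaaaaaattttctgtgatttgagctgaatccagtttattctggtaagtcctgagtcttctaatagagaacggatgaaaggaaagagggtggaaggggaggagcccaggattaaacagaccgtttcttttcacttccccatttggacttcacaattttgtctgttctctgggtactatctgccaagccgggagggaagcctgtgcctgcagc

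Fcgr3, chr1:171059354-171059653, minus strand: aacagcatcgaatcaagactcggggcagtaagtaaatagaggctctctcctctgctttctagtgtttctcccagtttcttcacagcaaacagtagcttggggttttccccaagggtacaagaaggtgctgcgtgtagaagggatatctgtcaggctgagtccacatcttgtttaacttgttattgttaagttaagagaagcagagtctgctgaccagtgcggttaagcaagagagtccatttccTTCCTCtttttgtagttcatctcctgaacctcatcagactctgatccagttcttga

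Fcgr4, chr1:171018676-171018975, plus strand: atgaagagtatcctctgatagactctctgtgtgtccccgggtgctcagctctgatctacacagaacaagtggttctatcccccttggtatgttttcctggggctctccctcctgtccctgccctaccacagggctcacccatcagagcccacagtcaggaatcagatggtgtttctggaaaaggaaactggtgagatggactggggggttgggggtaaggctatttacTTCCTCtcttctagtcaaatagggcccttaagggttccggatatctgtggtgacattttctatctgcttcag

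GAGGAA began 55 bases before the start site in Fcgr1, 6 bases before it in Fcgr3 and 22 bases before it in Fcgr4. Both strands were searched, and 28.3% of 27025 mouse promoters of this length held this word. The windows of Fcgr2b, Fcer1g and Fcgrt did not hold it. The RefSeq starts of Fcgr2b and Fcgr3 lie inside the GENCODE bounds given above, so these windows belong to 1 of several annotated starts.

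In all, 20778 cells were available, with 868 to 6544 cells and 1669076 to 12445769 UMIs (unique molecular identifiers, 1 for each captured transcript molecule) per mouse. The median depth was 1356 to 1948 UMIs per cell in the 8 libraries. Libraries were not fully separate. Of the 28 pairs of libraries, 5 shared more cell barcodes than their sizes give, with 39 to 160 barcodes in common, and the highest was between B6→B6 2 and HLA→B6 2 (160 shared, 6.66 expected). These pairs joined B6→B6 1, 2 and 3 and HLA→B6 2. Values within these linked libraries and within the other 4 are given for some results only. They cover all members but Fcer1g in alveolar macrophages, Fcgr4 in monocytes, Fcer1g in T cells and the IgG transcripts. Other results are given without this division. Levels below are CPM, the UMIs of a gene in every 1000000 UMIs of the summed cells of 1 type in 1 mouse, with at least 10 cells required. One transcript gives 1 count whatever its length, and levels are compared between cells and not between genes. The labels of cell types are the authors', and cells were grouped on the same counts, so differences between types are descriptions without a test.

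Fcgr1 was highest in monocytes and alveolar macrophages and Fcgr4 in monocytes, whereas Fcgr3 was highest in neutrophils and mast cells. Fcgr2b was highest in monocytes, alveolar macrophages and myeloid cells, and the common γ chain, Fcer1g, was high in all of these and in NK cells. The cells labelled leukocytes held the neutrophil markers (6 of 6 detected, 135006 to 226356 CPM summed) and are called neutrophils here. Fcgr1 was at 128 ± 43.2 CPM in monocytes (SD, n = 8 mice) and 74.0 ± 44.4 CPM in alveolar macrophages. Monocytes were higher in 6 of 8 mice, so the order of these neighbours was not fixed. Neutrophils came next by the mean, at 8.54 CPM (n = 7 mice), which rested on 2 UMIs in HLA→B6 2 (56.6 CPM), and their median was 0. Myeloid cells reached 19.9 CPM. In 2286 B cells no UMI of Fcgr1 was counted among 4101650 UMIs, which allows a level of up to 0.731 CPM and a share of up to 0.131% of cells with a UMI.

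Fcgr4 was at 438 ± 161 CPM in monocytes, higher than in alveolar macrophages (125 ± 66.6 CPM) in 8 of 8 mice. Alveolar macrophages and neutrophils (121 ± 67.0 CPM) lay closer together than their spread. Fcgr3 was highest in neutrophils (749 ± 205 CPM, n = 7 mice) and was at 740 CPM in the mast cells of the few mice that had 10 of them. It was at 504 ± 212 CPM in alveolar macrophages and 482 ± 105 CPM in monocytes. The order of these neighbours went with the group, since monocytes were higher in all 5 B6→B6 mice and alveolar macrophages in all 3 HLA→B6 mice. Fcgr3 was also at 59.2 CPM in NK cells and 41.3 CPM in the cells labelled myeloid.

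The inhibitory receptor Fcgr2b had the widest range of cell types among the FcγR chains. It was at 294 ± 85.1 CPM in monocytes and 221 ± 93.6 CPM in alveolar macrophages, and monocytes were higher in 5 of 8 mice, the 5 B6→B6 mice. It followed at 175 ± 210 CPM in myeloid cells, 118 CPM in mast cells, 98.5 ± 32.5 CPM in B cells, 50.1 CPM in plasma cells (PCs) and 40.0 CPM in NK cells. Fcgr2b was the 1 FcγR chain at a clear level in B cells.

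Fcer1g, whose chain signals for the activating FcγRs and for NK cell receptors, was at 5176 ± 415 CPM in monocytes. NK cells (3882 ± 245 CPM), mast cells (3676 CPM), neutrophils (3315 CPM) and alveolar macrophages (2679 ± 550 CPM) came next, and myeloid cells were at 836 CPM. T cells were at 49.6 CPM.

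Fcgrt differed from the other 5 genes in that structural cells held a sizeable part of it. It was at 159 ± 55.6 CPM in alveolar macrophages, 144 ± 104 CPM in myeloid cells, 68.1 CPM in monocytes, 54.3 CPM in structural cells, 26.6 CPM in B cells and 18.1 CPM in T cells. No UMI was counted in 172 PCs, which allows up to 2.17 CPM, or in 85 mast cells, which allows up to 21.2 CPM. The latter limit is close to the level of B cells.

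**Figure D1:**
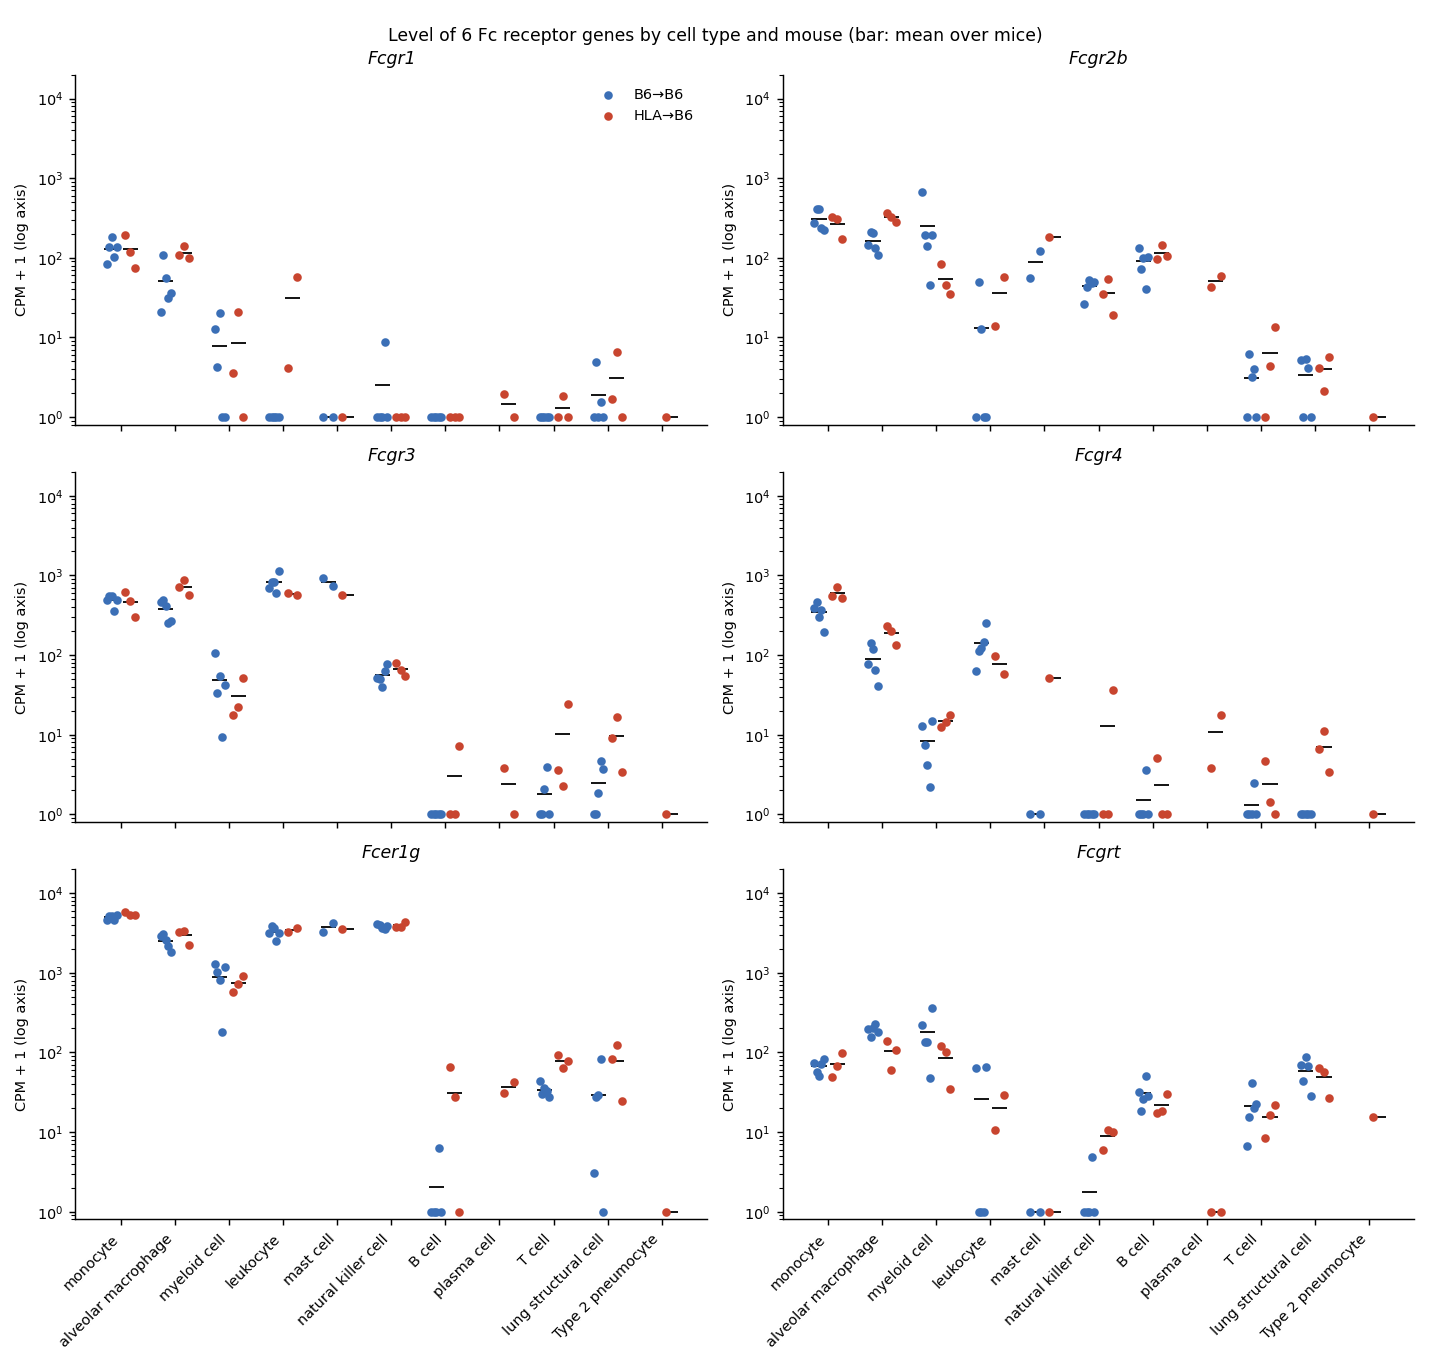
CPM + 1 of each of the 6 genes (log axis) by labelled cell type. Each point is the summed cells of 1 mouse, coloured by group, and bars are group means. Fcgr1 stands highest in monocytes and alveolar macrophages, Fcgr4 in monocytes, Fcer1g also in NK cells and neutrophils, and Fcgrt also in myeloid and structural cells.

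Where the transcripts of a whole graft lay depended on the number of cells as well as on their level. Averaged over the 8 mice, with the SD between them, monocytes held 49.7% ± 22.2 of all Fcgr1 UMIs and alveolar macrophages 47.7% ± 22.2. By group, the monocyte share of Fcgr1 was 54.5% ± 15.5 in B6→B6 and 41.7% ± 32.9 in HLA→B6 mice, and it ran from 10.4% to 76.1% over single mice. Monocytes held 60.6% ± 14.3 of Fcgr4 UMIs and alveolar macrophages 33.7% ± 15.6. Alveolar macrophages held 54.6% ± 21.2 of Fcgr3 UMIs, monocytes 29.7% ± 14.02 and neutrophils 9.14% ± 8.84. Mice thus differed widely in where these receptors lay. Fcgr2b was spread over alveolar macrophages (40.9% ± 20.5), monocytes (29.4% ± 15.5), B cells (13.6% ± 12.3) and myeloid cells (10.9% ± 11.7). Its share in myeloid cells was 16.1% ± 12.2 in B6→B6 and 2.26% ± 1.62 in HLA→B6 mice. Fcer1g UMIs lay in alveolar macrophages (38.1% ± 19.3), monocytes (37.1% ± 15.9) and NK cells (13.9% ± 7.52). Fcgrt UMIs lay in alveolar macrophages (44.5% ± 12.4), structural cells (18.2% ± 9.38), myeloid cells (13.5% ± 7.29) and monocytes (11.5% ± 7.29).

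The share of cells with a UMI followed depth. Shares after thinning cells to 1000 UMIs cover only cells with at least that many (130 of 284 alveolar macrophages in B6→B6 2). Among cells labelled alveolar macrophages (median 2792 UMIs), 56.6% had a UMI of Fcgr3, and 33.0% had one after thinning. The same shares were 39.2% and 18.2% for Fcgr2b, 24.7% and 10.4% for Fcgr4, 20.1% and 6.93% for Fcgr1, and 31.6% and 14.5% for Fcgrt. Among monocytes, 49.1% had a UMI of Fcgr4 (36.3% thinned). T cells, which should lack FcγRs and had a median of 1648 UMIs, gave the background, at 0.0394% for Fcgr1, 0.493% for Fcgr2b, 0.473% for Fcgr3 and 0.118% for Fcgr4. The T cells of HLA→B6 3 stood apart, at 4.76% for Fcgr3 and 2.60% for Fcgr2b (2.17% and 1.12% thinned), while other mice reached at most 0.436% and 1.17%.

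The genes most like each member over 69 sums of 11 cell types are given as Pearson's r of log2(CPM + 10), a description in which sums share mice and cell types. Fcgr1 was most like F10, a coagulation factor (r = 0.92), and Adgre1, which encodes F4/80 (r = 0.91). Fcgr4 was most like Csf1r, the receptor for CSF-1 (r = 0.94), Fcgr3 like Prdx5 (r = 0.94), and Fcer1g like Tyrobp, which encodes the other ITAM chain DAP12 (r = 0.97). Fcgr2b was most like Pld4 (r = 0.84) and Fcgrt like Psap, a lysosomal protein (r = 0.80). Among the members themselves, Fcgr3 and Fcer1g were closest (r = 0.88). Next were Fcgr3 with Fcgr4 and Fcgr1 with Fcgr4 (r = 0.80 for both), whereas Fcer1g and Fcgrt had r = 0.080.

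Some monocytes had markers of patrolling cells alone (a UMI of Nr4a1, Ace or Treml4 and none of Ly6c2, Ccr2 or Vcan) and others those of classical cells alone (the reverse). The 6 genes split between these sets. Monocytes with markers of both kinds, 13.6% (HLA→B6 2) to 42.0% (B6→B6 2) per mouse, were left out. So were those with neither, up to 9.56% (HLA→B6 1). Fcgr4 was at 1016 ± 372 CPM in patrolling and 82.5 ± 65.8 CPM in classical monocytes (n = 6 mice with 10 cells of each), a mean difference of 3.94 ± 1.504 on the log2(CPM + 10) scale. The high-affinity receptor Fcgr1 ran the other way, at 37.4 ± 13.3 CPM in patrolling and 212 ± 50.4 CPM in classical monocytes (−2.24 ± 0.28). Fcgr2b (150 ± 9.98 against 436 ± 57.3 CPM) and Fcgr3 (287 ± 70.0 against 715 ± 142 CPM) were also lower in patrolling cells. Fcer1g (6735 ± 1031 against 4364 ± 458 CPM) and Fcgrt (114 ± 33.7 against 34.2 ± 22.2 CPM) were higher. For all 6 genes the direction was the same in 6 of 6 mice, and the exact two-sided permutation of signs gave p = 0.0312 for each, the smallest it can give. Those p-values take the subsets as given, and the labels of monocytes and their markers came from the same counts. How many of all genes have 1 direction in 6 of 6 mice was not counted, so the p-values do not set these 6 apart from other genes. The sets also differed in depth. In HLA→B6 1, 419 patrolling cells held 672329 UMIs and 368 classical cells held 1150732 UMIs. The part of depth in these differences was not tested.

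**Figure D2:**
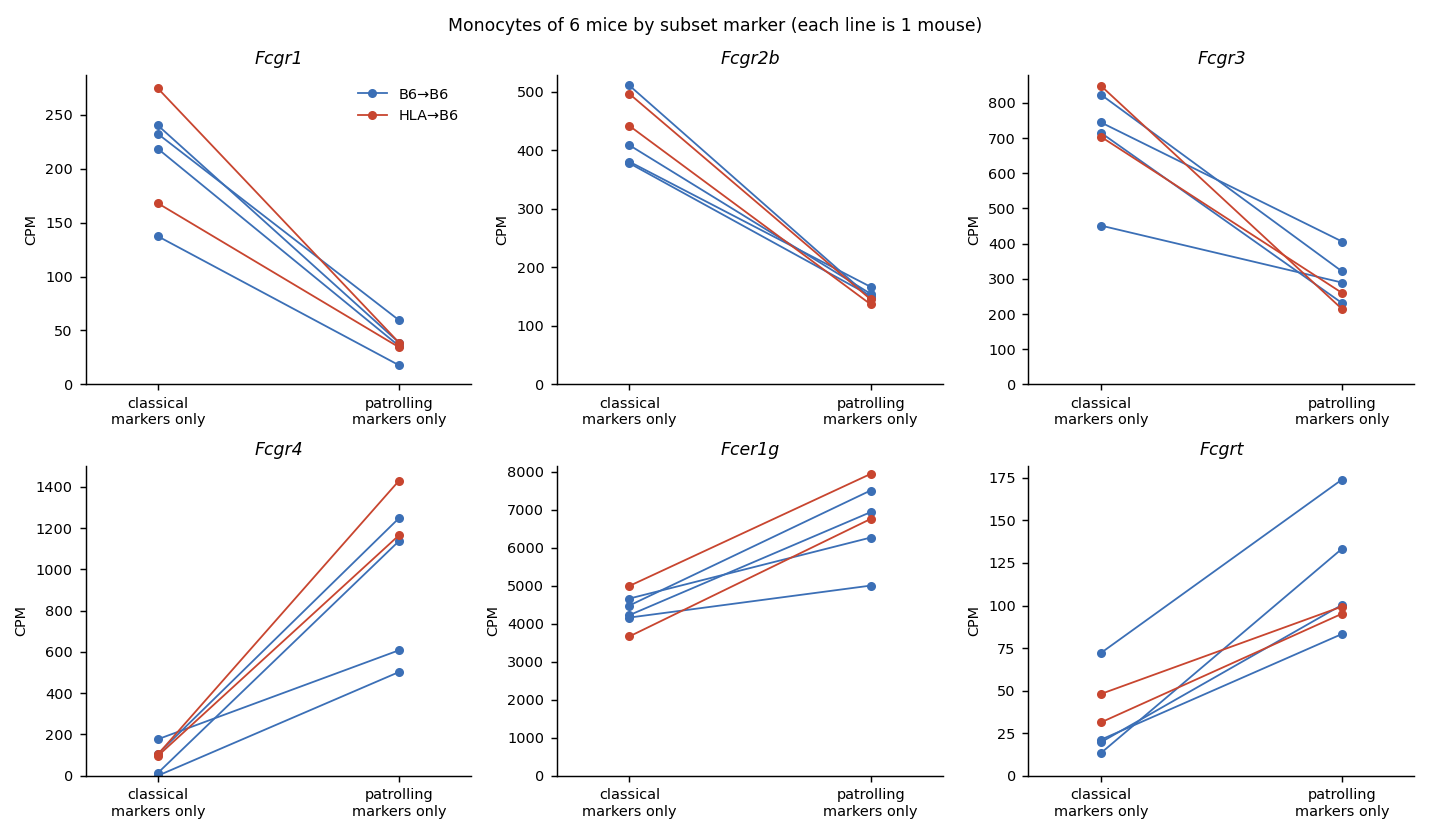
CPM of the 6 genes in monocytes with classical or patrolling markers alone, with a line for each mouse that had 10 cells of each (n = 6). Every line for Fcgr4, Fcer1g and Fcgrt rises to patrolling cells, and every line for Fcgr1, Fcgr2b and Fcgr3 falls.

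The groups were then compared in each cell type by edgeR's quasi-likelihood test on the summed counts, with p adjusted over all genes tested by the Benjamini-Hochberg method and a threshold of 0.05. The labels do not say that the grafts were handled on separate days, and p-values refer to the spread between mice. In cells labelled alveolar macrophages, the 4 FcγR chains were higher in HLA→B6 grafts, with log2 fold changes of 1.18 to 1.46. These 4 were the members that this fit called over the cell types. With the linked libraries as a block 7 were called, the same 4 with Fcer1g (0.60, edgeR adjusted p = 0.0227) and Fcgrt (−0.87, adjusted p = 0.0120) in alveolar macrophages and Fcer1g in T cells (1.15, adjusted p = 0.0371). In this type 712 of 5798 genes were called (12.3%), 6.36% higher and 5.92% lower, so calls were common there. Of the members, 5 of 6 had an unadjusted p under 0.05, as did 29.1% of genes.

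Fcgr2b, the inhibitory receptor, was at 145, 209, 205, 133 and 108 CPM in B6→B6 mice 1 to 5 and at 364, 324 and 280 CPM in HLA→B6 mice 1 to 3. The groups did not overlap, and the lowest HLA→B6 mouse lay well above the highest B6→B6 mouse. Such a separation in this direction was found for 5.14% of genes. Its log2 fold change was 1.24 (SE 0.22, edgeR adjusted p = 0.00979).

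Fcgr3, the activating receptor shared by macrophages, neutrophils and NK cells, was at 465, 484, 409, 253 and 269 CPM in B6→B6 mice and 720, 872 and 562 CPM in HLA→B6 mice. Its groups did not overlap either, and B6→B6 4 and 5 were the lowest. Fcgr3 had a log2 fold change of 1.18 (SE 0.26, edgeR adjusted p = 0.0175), and without HLA→B6 2 this was 0.97 (adjusted p = 0.0743).

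Fcgr4 was at 75.8, 140, 118, 63.4 and 40.2 CPM in B6→B6 mice and 232, 201 and 131 CPM in HLA→B6 mice. HLA→B6 3 lay between the 2 highest B6→B6 mice, so the groups overlapped. Fcgr4 had a log2 fold change of 1.36 (SE 0.34, edgeR adjusted p = 0.0276), and the call was lost without B6→B6 1, B6→B6 4, HLA→B6 1 or HLA→B6 2, each in turn. Fcgr1, the high-affinity receptor, was at 19.8, 109, 54.9, 30.1 and 35.2 CPM in B6→B6 mice and 107, 139 and 97.9 CPM in HLA→B6 mice. B6→B6 2 was as high as HLA→B6 mice, and the groups overlapped. The overlap rested on this mouse, whose library shares 160 barcodes with HLA→B6 2, and the next B6→B6 mouse was at 54.9 CPM. Fcgr1 had a log2 fold change of 1.46 (SE 0.42, edgeR adjusted p = 0.0430), the least secure of the 4 calls, which was kept in 2 of the 8 fits that left out 1 mouse.

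Fcer1g, the chain that the activating receptors need, was at 2888, 3063, 2610, 2167 and 1842 CPM in B6→B6 mice and 3274, 3332 and 2258 CPM in HLA→B6 mice. HLA→B6 3 lay inside the B6→B6 range, and the log2 fold change of 0.46 (SE 0.22, edgeR adjusted p = 0.195) did not pass. Fcgrt was at 198, 157, 203, 228 and 178 CPM in B6→B6 mice and 139, 59.9 and 106 CPM in HLA→B6 mice. Every HLA→B6 mouse lay below the whole B6→B6 range, as for 17.7% of genes. The fold change was −0.74 on the log2 scale (SE 0.24, edgeR adjusted p = 0.0630), which missed the threshold, and without HLA→B6 1 the adjusted p was 0.0309.

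The ratio of activating to inhibitory transcripts, (Fcgr1 + Fcgr3 + Fcgr4) UMIs over Fcgr2b UMIs, was 3.20 ± 0.51 (SD, n = 5) in B6→B6 and 3.16 ± 0.51 (n = 3) in HLA→B6 alveolar macrophages. Within the linked libraries and within the other 4, the difference in mean log2(CPM + 10) was 0.78 and 1.34 for Fcgr2b, 0.93 and 1.26 for Fcgr3, 0.84 and 1.61 for Fcgr4, and 1.28 and 1.40 for Fcgr1. It was −1.48 and −0.68 for Fcgrt. These values, from 3 against 1 and 2 against 2 mice, are given without a test.

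**Figure D3:**
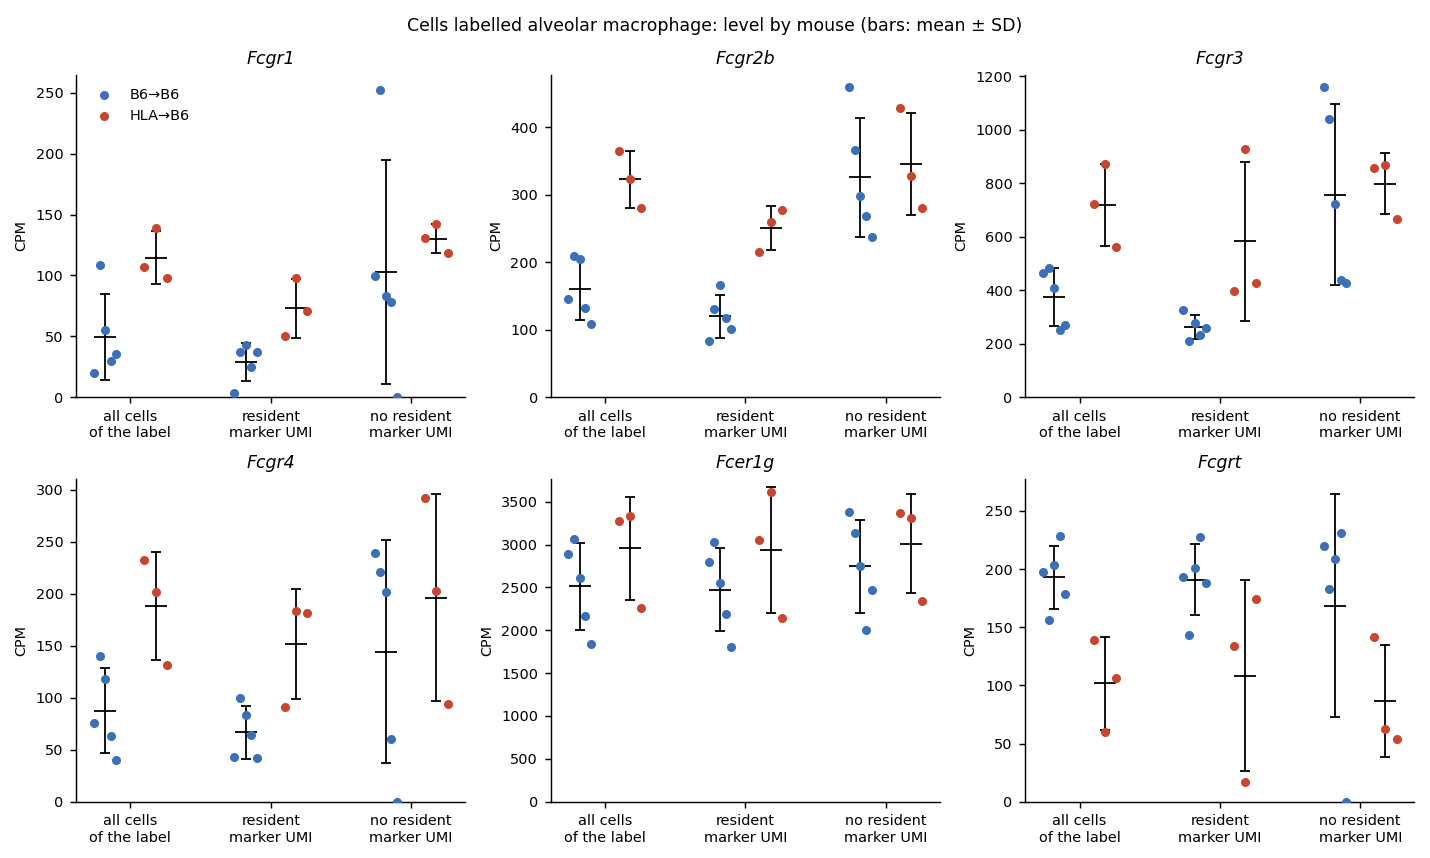
CPM of the 6 genes in all cells labelled alveolar macrophages and in those with or without a UMI of a resident alveolar macrophage marker. Each point is 1 mouse, and bars give the mean and SD of B6→B6 (n = 5) and HLA→B6 (n = 3). Fcgr2b and Fcgr3 (higher in HLA→B6) and Fcgrt (lower) separate the groups in all cells of the label.

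The cells that carry this label differed between the groups in more than their receptors. Alveolar macrophage markers summed to 10065 to 12589 CPM in B6→B6 mice and 547 to 4728 CPM in HLA→B6 mice (8 of 8 detected in both). Interstitial macrophage markers summed to 90.5 to 5419 CPM and 4585 to 8841 CPM (7 of 7 detected in both). Marco, a scavenger receptor of alveolar macrophages, was at 193 ± 49.7 CPM in B6→B6 and 13.9 ± 11.3 CPM in HLA→B6 (log2 fold change −3.68), and Siglecf (−1.95) and Krt79 (−3.26) were called lower as well. The label therefore held fewer cells with the defining markers, or cells with fewer such transcripts, in HLA→B6 grafts. The median cell of HLA→B6 2 held 7144 UMIs and that of HLA→B6 3 held 898.

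For this reason the label was divided, after the data had been seen, into cells with and without a UMI of a resident alveolar macrophage marker (Marco, Siglecf, Plet1 or Krt79). Whether such a UMI is seen depends on the depth of the cell as well as on its type. Cells with one made up 56.0%, 39.8%, 69.5%, 88.2% and 83.8% of the label in B6→B6 mice and 37.7%, 5.84% and 26.2% in HLA→B6 mice. Among cells with a marker, Fcgr2b was at 82.9, 131, 167, 118 and 101 CPM in B6→B6 mice and 215, 260 and 278 CPM in HLA→B6 mice. Every HLA→B6 mouse again lay above the B6→B6 range, as for 4.56% of genes in these cells, and the log2 fold change of 1.26 (SE 0.24, edgeR adjusted p = 0.00998) was as large as in the whole label. In the same cells Fcgr3 was at 328, 209, 279, 233 and 260 CPM in B6→B6 mice and 396, 926 and 427 CPM in HLA→B6 mice. HLA→B6 2, with 30 such cells, was far above the rest, and the log2 fold change was 1.45 (SE 0.32, edgeR adjusted p = 0.0210). Fcgr4 passed too (1.35, SE 0.34, edgeR adjusted p = 0.0454), and Fcgr1 (1.48, adjusted p = 0.0848), Fcer1g (0.50, adjusted p = 0.321) and Fcgrt (−0.71, adjusted p = 0.359) did not. Here 178 of 4694 genes were called (3.79%).

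Among cells of the label without a resident marker, none of the 6 members was called, and 0 of 2677 genes were (0%). The log2 fold changes there were 0.23 for Fcgr2b, 0.20 for Fcgr3, 0.25 for Fcgr1 and 0.50 for Fcgr4. Fcgrt was the 1 member with an unadjusted p under 0.05 (−0.96, edgeR adjusted p = 0.539). Depth was limited here, with 17 cells and 21067 UMIs in B6→B6 5, and the median cell held 530 to 2464 UMIs in B6→B6 mice and 677 to 7106 UMIs in HLA→B6 mice. B6→B6 1 and 2, which share barcodes with HLA→B6 2, gave 70 and 171 of these cells. The fits of cells with and without a marker were not repeated without shared barcodes, so their part in these values was not tested. Within a mouse, cells with a marker had lower levels than cells without one. With the mouse as a block (n = 8), edgeR gave log2 differences of −1.14 for Fcgr2b (adjusted p = 0.00298), −1.25 for Fcgr3 (adjusted p = 0.00298) and −1.51 for Fcgr1 (adjusted p = 0.00582), in a fit that called 519 of 3130 genes (16.6%). Fcgr4 (−0.87, adjusted p = 0.0749), Fcer1g (−0.25, adjusted p = 0.150) and Fcgrt (−0.15, adjusted p = 0.751) did not pass. The share of the label without a resident marker thus moved with the group, and its part in the difference over the whole label was not tested.

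In monocytes none of the 6 genes was called. Fcgr4 was at 395, 462, 304, 367 and 193 CPM in B6→B6 mice and 545, 718 and 517 CPM in HLA→B6 mice. The groups did not overlap, as for 2.3% of genes in this direction. Fcgr4 had a log2 fold change of 0.75 (SE 0.22), with an unadjusted p of 0.00406 and an adjusted p of 0.421 by edgeR, and 1 of 4352 genes was called (0.023%). Fcer1g was at 4601, 5191, 5220, 4543 and 5316 CPM in B6→B6 mice and 5787, 5369 and 5383 CPM in HLA→B6 mice. Its groups lay close but did not overlap (log2 fold change 0.11). Fcgr1 (0.00), Fcgrt (0.01), Fcgr3 (−0.08) and Fcgr2b (−0.24) had smaller or negative values. Of the 6 members, 1 had an unadjusted p under 0.05 (5.03% of genes did), and DESeq2 called 0. Fcgr4 was also higher within the linked libraries and within the others, by 0.90 and 0.97 on the log2(CPM + 10) scale.

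The ratio of activating to inhibitory UMIs in monocytes ranged from 2.54 to 3.71 in B6→B6 mice and from 4.17 to 5.20 in HLA→B6 mice, without overlap. The part of patrolling cells in this value was not tested. Cells with patrolling markers alone made up 67.3%, 43.0%, 35.5%, 59.5% and 42.6% of monocytes in B6→B6 mice and 38.9%, 64.5% and 70.4% in HLA→B6 mice, which overlapped. Among patrolling cells alone, Fcgr4 was at 845 ± 330 CPM (n = 5) and 1135 ± 313 CPM (n = 3), with overlapping groups and an exact two-sided permutation p of 0.232. Fcgr2b in the same cells was at 168 ± 29.2 CPM and 127 ± 24.4 CPM (exact permutation p = 0.0536). With 3 mice against 5, this exact test cannot go below p = 0.0179, and 94 such tests were run.

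The difference between the types was tested itself, as an interaction in a fit with the mouse as a block. The change in monocytes minus that in alveolar macrophages was −1.496 for Fcgr2b (SE 0.22, edgeR adjusted p = 0.00389) and −1.32 for Fcgr3 (SE 0.27, edgeR adjusted p = 0.0198). In this fit 153 of 6382 genes were called (2.4%). For Fcgr1 (−1.55, adjusted p = 0.0819), Fcgr4 (−0.63, adjusted p = 0.299), Fcer1g (−0.34, adjusted p = 0.501) and Fcgrt (0.73, adjusted p = 0.340) the difference between the types did not pass. No gene was called for monocytes minus myeloid cells (0 of 5385, 0%). The Fcgr3 call was lost without B6→B6 4, HLA→B6 2 or HLA→B6 3.

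**Figure D4:**
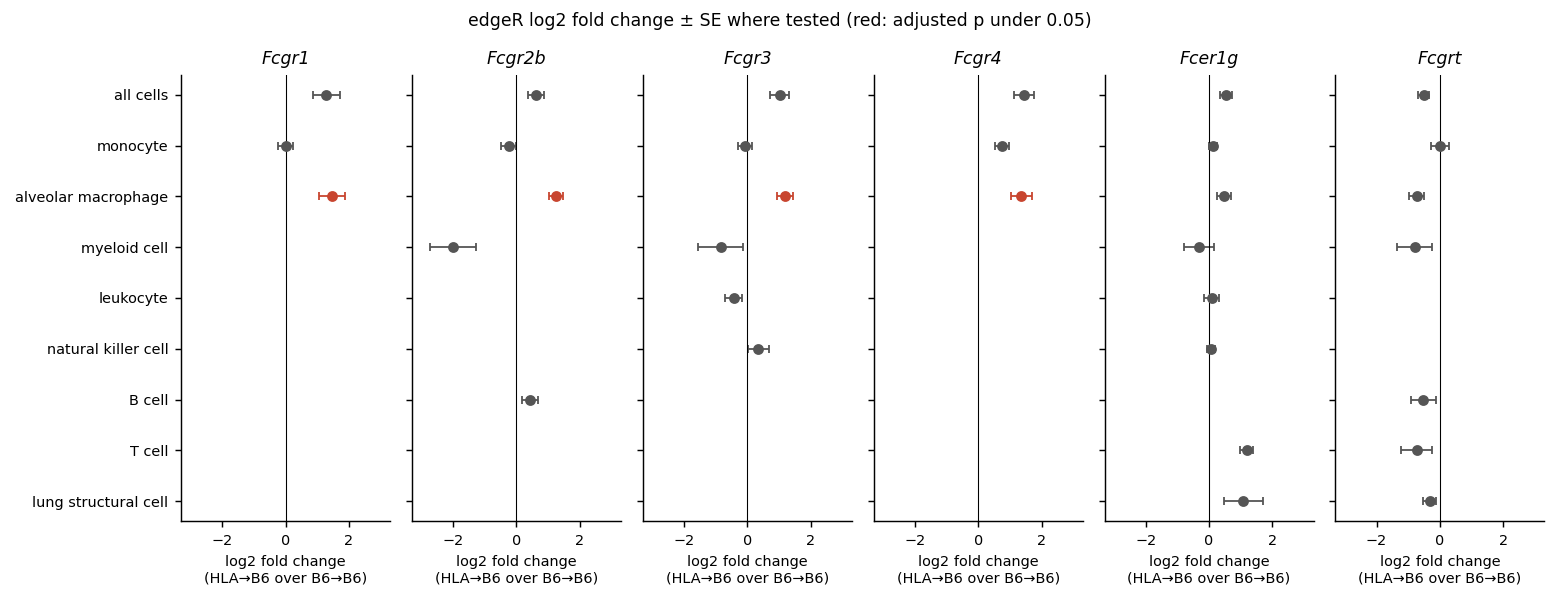
Log2 fold change of HLA→B6 over B6→B6 from edgeR, with its SE, for each gene in each cell type that passed the filter on low counts. Red points are past the adjusted threshold of 0.05, and all 4 lie in alveolar macrophages; leukocyte is the label of the neutrophils.

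In myeloid cells, which carried dendritic cell markers (467 to 2655 CPM summed in B6→B6 and 1732 to 2915 CPM in HLA→B6 mice), Fcgr2b had a negative fold change that did not pass. It was at 670, 191, 140, 45.1 and 191 CPM in B6→B6 mice and 82.1, 44.8 and 33.6 CPM in HLA→B6 mice. B6→B6 1 stood far above the others and B6→B6 4 lay among the HLA→B6 mice. Fcgr2b had a log2 fold change of −1.997 (SE 0.73), with an unadjusted p of 0.0179 and an adjusted p of 0.764 by edgeR, which called 0 of 4395 genes (0%, with 4.89% at an unadjusted p under 0.05). It was the 1 of 4 members tested here with an unadjusted p under 0.05, and DESeq2 called none. The other 3 were Fcgr3 (−0.84), Fcer1g (−0.33) and Fcgrt (−0.79). The change in alveolar macrophages minus that in myeloid cells was 2.90 for Fcgr2b (SE 0.67, edgeR adjusted p = 0.0733), in a fit that called 14 of 6828 genes (0.205%).

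In B cells, Fcgr2b, their inhibitory receptor, was at 133, 71.4, 98.6, 39.5 and 102 CPM in B6→B6 mice and 95.9, 142 and 105 CPM in HLA→B6 mice. The groups overlapped widely, and the log2 fold change of 0.44 had an edgeR adjusted p of 1.00 (0.117% of genes called). Fcgrt, the other member tested in B cells, was at −0.52 (adjusted p = 1.00), and neither had an unadjusted p under 0.05, as 4.72% of genes did. Within the clusters of B cells and PCs, cluster 0 gave 93.9 ± 39.0 CPM in B6→B6 (n = 5) and 87.9 ± 22.8 CPM in HLA→B6 (n = 3). In cluster 1, with 2 mice of each group that had 10 cells, Fcgr2b was at 35.9 and 101 CPM in B6→B6 and at 140 and 188 CPM in HLA→B6. These groups did not overlap, as for 19.7% of genes in this direction with so few mice. The log2 fold change was 1.34 (SE 0.49, edgeR adjusted p = 0.413). PCs of cluster 2, which reached 10 cells only in 2 HLA→B6 mice, were at 49.0 ± 13.1 CPM. No member was called in the B cell clusters by edgeR (0 of 2206 genes in cluster 1 and 0 of 4871 in cluster 0, 0% each) or by DESeq2. At an unadjusted p under 0.05 there was 1 member, Fcgr2b in cluster 1, where 9.97% of genes were under it, and none in cluster 0, where 3.16% were.

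In T cells, where its level was low, Fcer1g was at 42.8, 28.8, 34.7, 32.2 and 26.8 CPM in B6→B6 mice and 93.0, 62.0 and 76.3 CPM in HLA→B6 mice. Every HLA→B6 mouse lay above the B6→B6 range, as for 3.96% of genes. Fcer1g had a log2 fold change of 1.19 (SE 0.21), with an unadjusted p of 8.82e-05 and an adjusted p of 0.0643 by edgeR, which called 5 of 7164 genes (0.0698%, with 7.45% at an unadjusted p under 0.05). Fcgrt, the other member tested, was at −0.73 (adjusted p = 0.851). For Fcer1g the adjusted p was 0.00775 with DESeq2 and 0.0422 without B6→B6 4. Within the linked libraries and within the others, the difference was 0.68 and 1.26 on the log2(CPM + 10) scale. Of 5071 T cells, 3.88% had a UMI of Fcer1g, and 0.744% of B cells did, with median depths of 1648 and 1598 UMIs. Among those with at least 1000 UMIs, thinned to 1000, the shares were 2.98% and 0.543%. Thinned shares per mouse were 1.54% to 1.86% in B6→B6 and 3.19% to 4.90% in HLA→B6. NK cell markers in T cells summed to 123 to 433 CPM in B6→B6 mice and 183 to 282 CPM in HLA→B6 mice, and their part in the Fcer1g level was not tested.

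Structural cells carried Fcgrt, the IgG transporter, at different levels by cluster. Over all structural cells it had a log2 fold change of −0.33 (edgeR adjusted p = 0.769) and Fcer1g one of 1.09 (adjusted p = 0.722), in a fit that called 0.604% of genes and had 8.34% at an unadjusted p under 0.05, with neither member among them. Fcgr4 was too low for this fit, with 0 UMIs in every B6→B6 mouse and 16, 9 and 2 UMIs in HLA→B6 mice 1 to 3 (exact permutation p = 0.0179). These UMIs were levels of only 5.67, 9.99 and 2.36 CPM. The share of genes that separate in this way was not counted for structural cells. The part of macrophage transcripts or free RNA in these few UMIs was not tested. The mean of Fcgrt was 198 ± 29.6 CPM in B6→B6 (n = 3) and 97.8 ± 39.4 CPM in HLA→B6 (n = 3) in cluster 3, which held fibroblast markers (6 of 6 detected). Fcgrt was at 219, 212 and 164 CPM in B6→B6 mice and 135, 102 and 56.3 CPM in HLA→B6 mice there. Here too the groups did not overlap, as for 7.3% of genes in this direction, and the log2 fold change of −0.76 had an edgeR adjusted p of 0.428 (0.317% called). Cluster 2 was at 114 ± 32.7 and 91.3 ± 61.0 CPM (log2 fold change −0.54), and cluster 0 at 44.5 ± 32.5 and 63.4 ± 7.91 CPM (0.05). In cluster 5 Fcgrt was at 55.1, 33.9, 72.1 and 36.7 CPM in 4 B6→B6 mice and 107, 106 and 180 CPM in 3 HLA→B6 mice, from 11 and 22 UMIs in all. HLA→B6 mice were all above B6→B6 mice, as for 9.71% of genes, with an exact permutation p of 0.0286.

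Among structural clusters, Fcer1g was at 324 ± 21.7 CPM in cluster 6 (n = 3 mice), 281 ± 270 CPM in cluster 7 (n = 5), 184 CPM in cluster 9 (1 mouse), 144 ± 128 CPM in cluster 3 (n = 6) and 96.2 ± 137 CPM in cluster 1 (n = 8). Cluster 6 held T cell markers (7 of 7 detected). In cluster 1, which held endothelial markers (6989 to 11100 CPM summed in B6→B6 mice), it was at 0, 0, 0, 71.6 and 0 CPM in B6→B6 mice and 271, 348 and 80.2 CPM in HLA→B6 mice. The groups were apart, as for 2.98% of genes in this direction (exact permutation p = 0.0179, the smallest possible), and the counts were too low for the edgeR filter. Interstitial macrophage markers summed to 281 to 1119 CPM in the same HLA→B6 cells, with C1qa called higher (log2 fold change 8.44, edgeR adjusted p = 0.00119, 1.02% of genes called), and their part in this value was not tested. No member passed in any structural cluster by edgeR or DESeq2, among 3645 genes in cluster 0 (0.686% called) and 1643 in cluster 2 (0.243% called). None had an unadjusted p under 0.05 by edgeR, as 7.68% of genes did in cluster 0, 12.8% in cluster 2 and 13% in cluster 3.

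In neutrophils (5 B6→B6 and 2 HLA→B6 mice) and NK cells, Fcgr3 and Fcer1g were the members tested, and none was called. In neutrophils the log2 fold change was −0.43 for Fcgr3 (edgeR adjusted p = 1.00) and 0.08 for Fcer1g, among 913 genes (0% called, 5.15% at an unadjusted p under 0.05). In NK cells it was 0.35 for Fcgr3 and 0.06 for Fcer1g (adjusted p = 0.998 for both), among 2987 genes (0% called, 3.25% at an unadjusted p under 0.05). No unadjusted p was under 0.05 in either type, and DESeq2 called no member.

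Over all cells of a graft together, where fewer cells of a type and fewer transcripts per cell cannot be told apart, 5 of the genes had a positive and 1 a negative log2 fold change, and none was called. Fcgr4 was at 40.7, 78.6, 54.6, 35.6 and 24.9 CPM in B6→B6 mice and 148, 125 and 78.1 CPM in HLA→B6 mice. HLA→B6 3 and B6→B6 2 were nearly the same, so the groups overlapped slightly. Fcgr4 had a log2 fold change of 1.45 (SE 0.31, edgeR adjusted p = 0.244). Fcgrt was at 75.5, 57.4, 69.5, 93.6 and 68.2 CPM in B6→B6 mice and 50.4, 45.3 and 43.7 CPM in HLA→B6 mice. HLA→B6 mice were all lower (as for 5.45% of genes), and the log2 fold change was −0.52. Fcgr1 (1.29), Fcgr3 (1.02), Fcgr2b (0.62) and Fcer1g (0.52) completed the list. All 6 had an unadjusted p under 0.05, as did 7.04% of genes, but edgeR called 0 of 11584 genes (0%), and the adjusted p of Fcgr4 was 0.00611 with DESeq2.

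Genes that work with these receptors were read from lists, by their counts, beside 6.36% of all genes called higher in alveolar macrophages. In this type, 3 of 4 partner chains were tested and 2 were higher, B2m, the partner of Fcgrt (log2 fold change 1.47, edgeR adjusted p = 0.0237), and Tyrobp (0.63, adjusted p = 0.0455). Of 18 adaptors and effectors 15 were tested and 3 were higher, namely Lat2 (3.01, adjusted p = 0.0131), Blnk (2.88, adjusted p = 0.0219) and Prkcd, a protein kinase C (0.56, adjusted p = 0.0341). Of 8 inhibitory partners 7 were tested and 1 was higher, Dok1 (1.32, adjusted p = 0.0305). No gene of these lists was lower, and the list medians were 0.63, 0.21 and 0.03, against −0.03 over all genes tested and 1.21 over the 6 receptor genes. In monocytes, T cells and all cells together, 0 genes of these lists were called by edgeR, and 1, 3 and 4 of them had an unadjusted p under 0.05. Over all genes 5.03%, 7.45% and 7.04% did. The number of list genes tested is not given for these, so the counts are not set against those shares.

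IgG heavy chain transcripts, which encode the ligands (Ighg1, Ighg2b, Ighg2c and Ighg3) summed to 335, 186, 8.20, 9.74 and 0.921 CPM of all cells in B6→B6 mice and 14481, 3208 and 46.0 CPM in HLA→B6 mice. HLA→B6 3 lay inside the B6→B6 range, whose top was set by B6→B6 1 and 2, which share barcodes with HLA→B6 2. Within the linked libraries the values were 335, 186 and 8.20 CPM in B6→B6 and 3208 CPM in HLA→B6 mice. Within the other 4 they were 9.74 and 0.921 CPM against 14481 and 46.0 CPM. The groups overlapped in neither set, and the part of shared barcodes in the B6→B6 values was not tested. Over all cells the 4 genes had a median log2 fold change of 6.79 and an unadjusted p under 0.05 each, and edgeR called 0 of them after adjustment. In B cells 2 of the 4 were tested and both were higher, Ighg2b (log2 fold change 4.08, edgeR adjusted p = 0.0138) and Ighg3 (5.92, adjusted p = 0.0186). Of 11 other Fc receptors, 5 were tested in B cells and 0 were called, with a median log2 fold change of −0.02. Fcer2a, the low-affinity IgE receptor of B cells, was at −0.43 (SE 0.21, edgeR adjusted p = 1.00).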

How the data were processed

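Total cells of 8 grafts (10000 loaded for each) were measured by droplet 3′ RNA sequencing. The authors deposited UMI counts per gene and cell, made with Cell Ranger on mm10, and state that barcodes with fewer than 200 UMIs and genes in fewer than 3 cells were dropped and that free RNA was removed with SoupX. Cell labels are theirs (Seurat, clustifyr). Free RNA that remained would lift low levels. Samples were grouped by their labels, and each cell took its mouse from the authors' table of cells, since numbers in HLA→B6 cell names differ from the mouse numbers. In all, 0 columns were left unused.

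Counts were summed per mouse and type or cluster (at least 10 cells, 2 mice per group) and compared by edgeR 4.0.16 (TMM, filterByExpr minimum 10, quasi-likelihood F test, adjusted p threshold 0.05) in R 4.3.3, with DESeq2 1.42.0 as an alternative. Type 2 pneumocytes, mast cells, PCs, structural clusters 6, 8, 9 and 10 and B cell clusters 2 and 3 had too few mice to be fitted. CPM, exact permutation tests (two-sided) and thinning were computed in Python 3.11.15 with scipy 1.17.1. Doublets were kept; Scrublet (scanpy 1.11.5, expected rate 0.06) marked 256 cells (1.23%), left out in an alternative. Limits from a count of 0 use 3 counts and cover counting error only. On simulated data, edgeR recovered 32% of 2-fold and 98% of 4-fold changes in alveolar macrophages (5798 genes), with 9.72% of calls on unchanged genes, and 53% and 97% in monocytes (4352 genes). The genes named are the 6 members and those of the lists past the threshold, with 2 to 5 most alike. The members and all lists were chosen with earlier results of these data known. The division of alveolar macrophages by markers and the linked sets were chosen after seeing the data. Some results of the lists are not reported here. Genes named beyond the rule (Marco, Siglecf, Krt79, C1qa, Fcer2a) were chosen after their values were seen.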

Additional observations from a re-analysis of the deposited data

Results flagged for a closer look

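Fcgr2b in myeloid cells was at 670 CPM in B6→B6 1, far above the next highest of the 5 B6→B6 mice (191 CPM), and the gap made up 0.766 of the group's range. This mouse had 42 such cells. Fcgrt in B cell cluster 0 was at 46.6 CPM in B6→B6 4, with 28.8 CPM next. These were the 2 samples that stood apart among 39 combinations of a member and a cell type or cluster, and chance sets a sample apart in about 1 in 20 groups. The change from B6→B6 to HLA→B6 differed between monocytes and alveolar macrophages by −1.496 on the log2 scale for Fcgr2b and by −1.32 for Fcgr3, both past the threshold of the edgeR interaction test.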

How the results depend on the processing

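Over the cell types, 4 member changes were called, all in alveolar macrophages. The count was 9 with no filter on low counts, 7 with the linked libraries as a block, 6 with DESeq2 and 1 to 5 with 1 mouse left out (1 without HLA→B6 2, 2 without B6→B6 1). Each of these first 3 settings kept the 4 calls. No filter added Fcer1g in T cells and B cells, Fcgr4 in monocytes and structural cells and Fcgr2b in myeloid cells, the linked block added Fcer1g and Fcgrt in alveolar macrophages and Fcer1g in T cells, and DESeq2 added Fcer1g in T cells and Fcgr4 over all cells. In alveolar macrophages alone it was 3 in cells with a resident marker, 0 in cells without one, and 1 to 4 with 1 mouse left out. In structural clusters 0 became 1 with no filter, the Fcer1g change in cluster 1, and 0 to 1 with 1 mouse left out, and in B cell clusters it was 0 to 0. The 2 interaction calls became 3 without shared barcodes and 1 to 3 with 1 mouse left out. The labels do not say whether mice of the same number form pairs, and a few correlations cannot decide it. Deviations of same-numbered mice had r of −0.047, 0.35 and −0.26 in alveolar macrophages, against −0.33 to 0.19 for unlike numbers. With the replicate block, 2 members were called there, Fcgr2b (1.01, edgeR adjusted p = 0.0383) and Fcgr3 (0.87, adjusted p = 0.0370), and 3 over all cell types, with Fcgr2b in myeloid cells (−2.56, adjusted p = 0.00760). Signs turned as follows. In monocytes, Fcgr1 was −0.023 with DESeq2, −0.0040 in cells of at least 500 UMIs, −0.20 with the replicate block and −0.0031 with the linked block, and Fcgrt was −0.025 without shared barcodes and −0.062 with the linked block. Fcer1g in neutrophils was −0.10 and Fcgr2b in B cell cluster 0 was −0.16 with the replicate block. With 1 mouse left out, ranges that crossed 0 were −0.49 to 0.22 (Fcgr1), −0.35 to 0.14 (Fcgr3) and −0.25 to 0.28 (Fcgrt) in monocytes, −0.0022 to 0.14 (Fcer1g in neutrophils), −0.038 to 0.10 (Fcer1g in NK cells), −0.077 to 0.074 and −0.98 to 0.034 (Fcgrt in structural clusters 0 and 2) and −0.17 to 0.12 (Fcgr2b in B cell cluster 0). The cause of these changes was not tested. Fcgr1 in alveolar macrophages also missed the threshold with library size only (adjusted p = 0.0591), where Fcgrt passed it (adjusted p = 0.0327). Of single values, 649 kept direction and side of the threshold, 58 lost and 13 gained a call, and 23 turned. Many of the losses are the monocyte subset comparison with 1 of its 6 mice left out. Its sign test cannot pass the threshold with fewer than 6 mice, so these losses were fixed in advance. Of alveolar macrophages with at least 1000 UMIs, 6.93% had a UMI of Fcgr1 when thinned to 1000, so depth limits its values.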
